A study of Homo sapiens with 6 samples.

Results

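Oxidative phosphorylation is carried out by complexes I to V of the inner mitochondrial membrane, and most of their subunits are encoded in the nucleus. The genes examined here are those nuclear-encoded subunits, chosen by symbol: NDUFA, NDUFB, NDUFC, NDUFS and NDUFV followed by a number for complex I, SDHA to SDHD for complex II, UQCR for complex III, the COX5 to COX8 isoform symbols for complex IV and ATP5 for complex V. Rows described as pseudogenes and NDUFA4 were left out by this rule. It found 86 of the 58302 genes in the deposited table, and 75 of the 86 had enough reads to be tested. The untested members held 0 to 31 reads over the 6 libraries: NDUFA3 in complex I (6 reads), 6 isoform or pseudogene rows of complex IV and 4 rows of complex V, among them ATP5L2 with 8 reads. The tested members held at least 174, the lowest being the readthrough ATP5J2-PTCD1.

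RNA was sequenced from PC-3, an established line of human prostate cancer that came from a bone metastasis, after the cells had received either a lentivirus overexpressing BHLHE22 (3 libraries) or an empty-vector lentivirus (3 libraries). BHLHE22 is a basic helix-loop-helix transcription factor. By the series title, the study concerns myeloid-derived suppressor cells in bone metastases of prostate cancer, and the comparison asks how the transcriptome of PC-3 cells differs when BHLHE22 is overexpressed. The sources used here do not tell if a group's libraries stem from different cultures, so p-values cover the spread among libraries alone, and that spread may be technical.

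Complex I oxidises NADH, complex II oxidises succinate, and both pass electrons to ubiquinone. Complex III moves them on to cytochrome c, complex IV hands them to oxygen, and complexes I, III and IV pump protons that drive ATP synthesis by complex V. Mitochondrial DNA encodes a small part of complexes I, III, IV and V and none of complex II, so the other subunits are imported and joined to the mitochondrial products with the help of assembly factors.

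The libraries held 12186723 to 15949537 reads. Levels are given as CPM (counts scaled to a common TMM-adjusted library size), and a gene was called when its Benjamini-Hochberg adjusted p over 15945 genes in edgeR's quasi-likelihood test was under 0.05. BHLHE22 itself stood at 7.41 ± 0.72 CPM in BHLHE22 libraries and at 0.0714 ± 0.0039 CPM in vector libraries (SD, n = 3 each). The first principal component held 69.9% of the variance and separated the groups. The epithelial markers KRT8, KRT18, EPCAM and CDH1 were all present, at 53.5 to 159 CPM on average in BHLHE22 libraries and 24.4 to 198 CPM in vector libraries. KLK3, which is low or absent in PC-3 cells, had 0 reads in all. Of the blood cell markers PTPRC had 3 reads in all and TYROBP, CD3E and HBB had 0. The endothelial gene CDH5 had 2 reads, the fibroblast genes DCN and PDGFRB had 5 and 25, but COL1A1 averaged 47.6 CPM in BHLHE22 and 65.9 CPM in vector libraries, COL3A1 0.923 and 7.64 CPM, and PECAM1 23.1 and 55.7 CPM. The part of these markers in the members' values was not tested. A bulk level cannot separate fewer cells with a transcript from less of it per cell.

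Of the 75 tested members, 27 passed the test as higher with BHLHE22 and 4 as lower, and 44 were not called. Over all tested genes, 49.4% were called, 25.1% higher and 24.3% lower, so the members' share of higher calls, 36%, stood above the background and their share of lower calls, 5.33%, below it. The median log2 fold change of the tested members was 0.18, against 0.00 for all tested genes, and 56 of the 75 were positive. The sizes were modest: 5 members were called at 1.5-fold or more higher and 1 at 1.5-fold or more lower, where 17% and 16.1% of all tested genes were. The 3 libraries of one group lay entirely above those of the other for 34 members in the higher direction and 8 in the lower, against 30.6% and 29.9% of all tested genes. The excess of higher calls was not stable. Without BHLHE22 replicate 2, 17 members (22.7%) were higher, against 19.6% of all genes tested in the same fit, and without vector replicate 1 it was also 17 (22.7%), against 19.7%; these shares are near the background. The share of lower calls was 4% to 6.67% under all alternatives run, against 12.2% to 25% of all genes tested in the same fits.

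**Figure D1:**
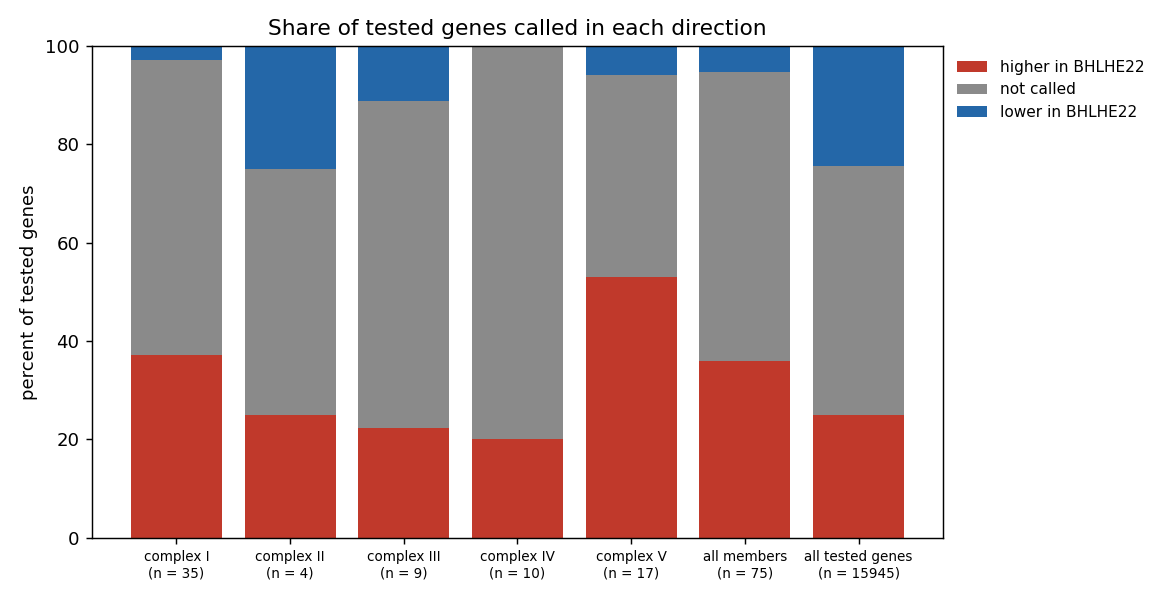
Share of tested genes called higher (red), not called (grey) or called lower (blue) in BHLHE22 libraries, in percent on the vertical axis, for complexes I to V, all 75 tested members and all 15945 tested genes. Complex V has the tallest red part, at 52.9%, and complex IV has no blue part.

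The complexes differed among themselves, as a description with no test between them. Complex V had the largest share of higher calls, 9 of 17 tested members (52.9%), and a median log2 fold change of 0.34. Complex I followed with 13 of 35 (37.1%) and a median of 0.18. For complex I this was not stable. Without any 1 library other than vector replicate 3, 6 or 7 of 35 members were higher (17.1% to 20%). This was below the 19.6% to 22.7% of all genes tested in those fits. With all libraries, limma-voom kept 13 of 35 (37.1%, against 25.1% of all genes). DESeq2 gave 9 of 35 (25.7%, against 23.1%), and an offset for gene length also gave 9 (25.7%, against 24.2%). At a threshold of 0.01, 4 of 35 (11.4%) were higher, against 15.6% of all genes. For complex V, 41.2% to 52.9% of members were higher with 1 library left out, against 19.6% to 24.1% of all genes. Complex II had 1 of 4 (25%) higher, complex III 2 of 9 (22.2%) and complex IV 2 of 10 (20%), with medians of -0.02, 0.03 and 0.08. One lower call each came from complex I (NDUFS1), complex II (SDHC), complex III (UQCRC2) and complex V (ATP5G2).

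**Figure D2:**
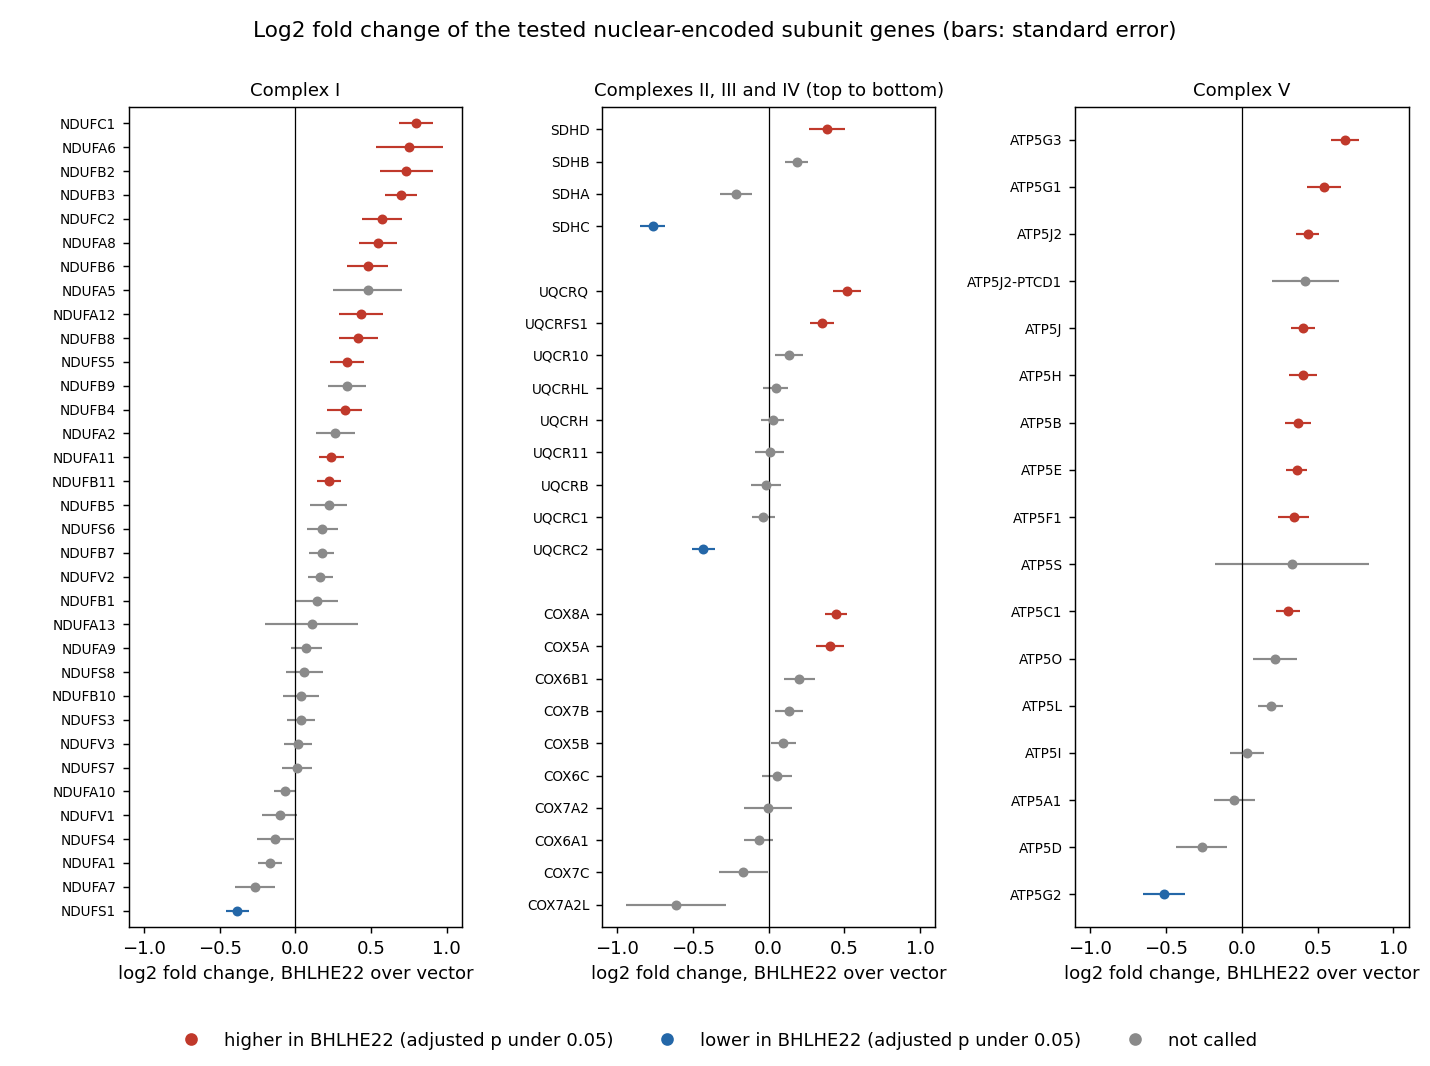
Log2 fold change of BHLHE22 over vector (horizontal axis) with its standard error for the tested members, in 3 panels (1 tested member of complex I is not drawn) for complex I, complexes II to IV and complex V. Red points were called higher, blue points lower and grey points were not called. The points right of 0 number 56, and the 4 blue points left of 0 are NDUFS1, SDHC, UQCRC2 and ATP5G2; COX7A2L, also far left, has a wide error bar and was not called.

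The genes of the ATP synthase c-ring were called in both directions. ATP5G1, ATP5G2 and ATP5G3, now named ATP5MC1, ATP5MC2 and ATP5MC3, are separate genes for subunit c, the ring-forming subunit that turns as protons pass; each has its own import sequence, and the cleaved products are the same protein. The 3 translations shared an identical stretch of 77 residues, and the 231 bases that encode it are printed here because they show how far the transcripts can be told apart. They come from the longest reading frames of GENCODE 29 transcripts, 5′ to 3′, and capitals mark the 57 positions at which the 3 genes do not all agree.
ATP5G1: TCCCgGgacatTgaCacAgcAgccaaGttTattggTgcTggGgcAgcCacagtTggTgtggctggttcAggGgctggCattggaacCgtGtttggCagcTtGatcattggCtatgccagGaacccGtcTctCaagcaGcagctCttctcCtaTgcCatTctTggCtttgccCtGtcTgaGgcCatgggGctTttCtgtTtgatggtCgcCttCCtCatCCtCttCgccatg
ATP5G2: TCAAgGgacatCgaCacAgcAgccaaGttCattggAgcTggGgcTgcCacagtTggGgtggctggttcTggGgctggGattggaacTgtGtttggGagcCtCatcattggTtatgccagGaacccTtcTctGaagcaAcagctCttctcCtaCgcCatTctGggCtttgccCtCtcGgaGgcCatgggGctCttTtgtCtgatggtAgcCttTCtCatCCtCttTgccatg
ATP5G3: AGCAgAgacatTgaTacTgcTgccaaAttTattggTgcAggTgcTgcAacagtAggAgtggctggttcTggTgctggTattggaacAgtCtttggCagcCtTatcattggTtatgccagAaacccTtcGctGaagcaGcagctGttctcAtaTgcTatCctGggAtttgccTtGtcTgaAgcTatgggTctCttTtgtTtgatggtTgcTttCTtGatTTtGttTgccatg
ATP5G1 and ATP5G2 were 88.3% identical over this stretch, with 27 differing bases and no identical run longer than 17 bases. ATP5G3 was 80.1% identical to each, with 46 differing bases.

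ATP5G3 (chromosome 2, 175176258 to 175184607 on GRCh38) had 131, 136 and 149 CPM in BHLHE22 libraries, against 83.6, 81.7 and 94.5 CPM in vector libraries. Every BHLHE22 library was above every vector library, and the log2 fold change was 0.68 (SE 0.09, adjusted p = 0.000965, edgeR quasi-likelihood). ATP5G1 (chromosome 17, 48892765 to 48895871), given here for its place in the c-ring, moved the same way, with 49.6, 55.5 and 54.1 CPM in BHLHE22 and 36.9, 32.0 and 40.6 CPM in vector libraries, without overlap between the groups. Its log2 fold change was 0.54 (SE 0.11, adjusted p = 0.00592). ATP5G2 (chromosome 12, 53632726 to 53677408) went the other way, with 57.2, 54.1 and 49.4 CPM in BHLHE22 libraries and 71.3, 65.8 and 92.7 CPM in vector libraries. The groups again did not overlap, vector replicate 3 was the highest, and the log2 fold change was -0.52 (SE 0.14, adjusted p = 0.0169). That call was lost without BHLHE22 replicate 2 (adjusted p = 0.0504), without BHLHE22 replicate 3 (0.0587) and with unscaled library sizes (0.0705).

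Of the summed c-ring CPM, ATP5G2 made up 21.9% ± 2.2 in BHLHE22 libraries and 38.2% ± 2.2 in vector libraries (SD, n = 3 each), a share that no scaling of the libraries can change. The share of ATP5G3 was 56.5% ± 2.2 in BHLHE22 and 43.5% ± 2.0 in vector libraries, and that of ATP5G1 21.6% ± 0.9 and 18.3% ± 0.8. The sum of the 3 genes was 245 ± 7 CPM in BHLHE22 libraries and 199.7 ± 25.1 CPM in vector libraries, a ratio of 1.23. These shares are of reads per gene and were not divided by transcript length.

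**Figure D3:**
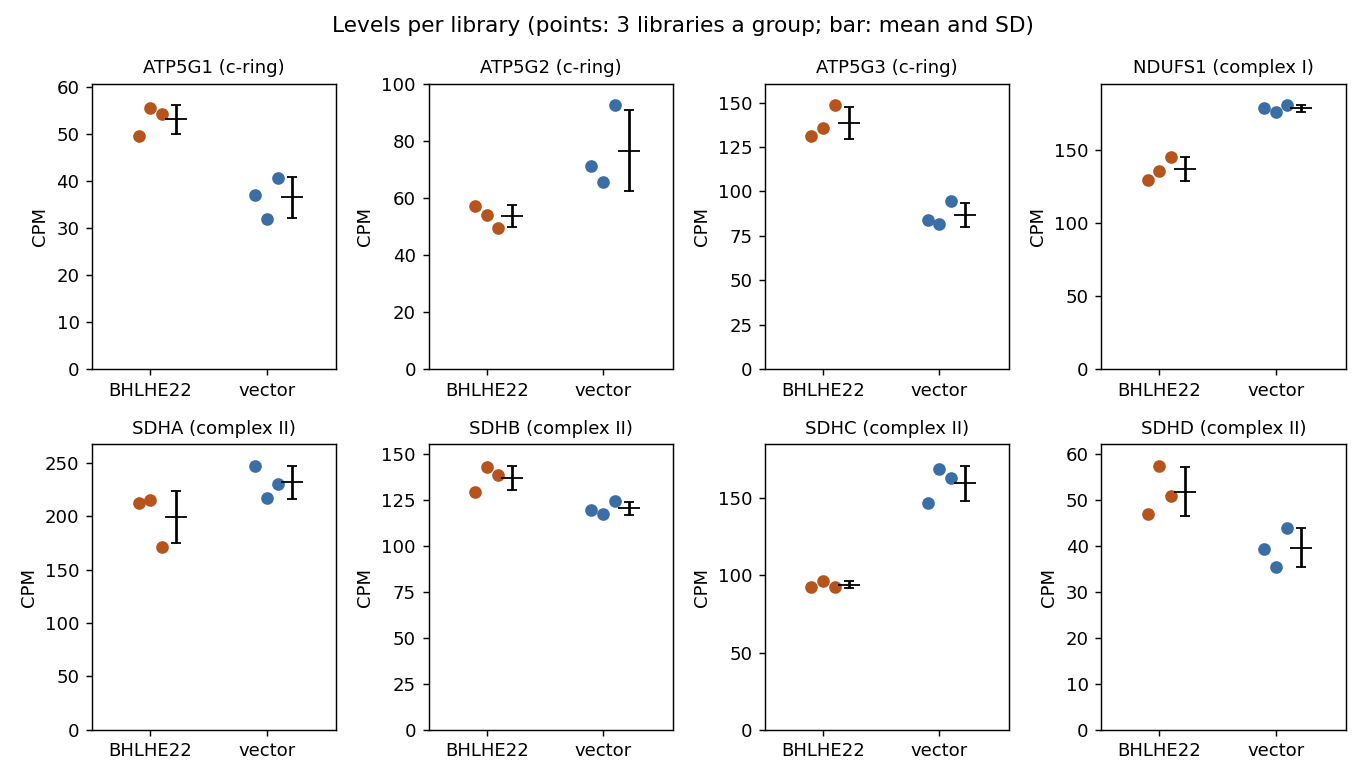
CPM per library (vertical axes, starting at 0) of the 3 c-ring genes, NDUFS1 and the 4 complex II genes; points are the 3 libraries of each group and the bar is the mean with its SD. ATP5G2, NDUFS1 and SDHC are lower in all 3 BHLHE22 libraries, ATP5G1, ATP5G3 and SDHD are higher in all 3, and SDHA and SDHB were not called.

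Elsewhere in complex V, higher calls were spread over its parts. Of the 5 genes of the F1 part, which holds the catalytic sites, ATP5B (the catalytic beta subunit), ATP5C1 (the gamma subunit of the central shaft) and ATP5E (epsilon) were called higher, with log2 fold changes of 0.37, 0.30 and 0.36. They are 60% of the part, where 25.1% of all tested genes were called higher. ATP5E had 179, 175 and 166 CPM in BHLHE22 libraries and 133, 134 and 138 CPM in vector libraries (SE 0.07, adjusted p = 0.00471, edgeR). ATP5A1, the alpha subunit that alternates with beta in the same ring, was not called: it averaged 332 ± 5 CPM in BHLHE22 and 343 ± 65 CPM in vector libraries, and the 95% interval of its log2 fold change ran from -0.31 to 0.21. Vector replicates spread from 273 to 400 CPM for this gene. ATP5D, the delta subunit, had a log2 fold change of -0.27 and was not called either.

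The peripheral stalk, which keeps the F1 part from turning with the ring, had 3 higher calls of 4 genes: ATP5F1 (0.34), ATP5H (0.40) and ATP5J (0.40). That is 75%, against 25.1% of all tested genes. All 3 share their position with another expressed gene, as given below. ATP5J, the F6 subunit, had 121, 123 and 119.5 CPM in BHLHE22 libraries and 93.2, 85.1 and 96.5 CPM in vector libraries (SE 0.08, adjusted p = 0.00450, edgeR). The groups did not overlap. Among the small membrane subunits ATP5J2, the f subunit, had 135, 131 and 125 CPM in BHLHE22 libraries and 94.5, 95.9 and 99.2 CPM in vector libraries (log2 fold change 0.43, SE 0.07, adjusted p = 0.00249). ATP5I and ATP5L were positive at 0.03 and 0.19 and not called. ATP5S, a protein that carries an ATP synthase name but is not a structural subunit, had 2.18 CPM in vector replicate 2, against 9.23 and 10.1 CPM in the other vector libraries, and was not called.

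In complex II, which has 4 subunits and no mitochondrial gene, the membrane anchors moved in opposite directions. SDHC and SDHD together hold the haem and help form the ubiquinone site. SDHC (chromosome 1, 161314257 to 161375340) had 92.5, 96.6 and 92.6 CPM in BHLHE22 libraries, against 147, 169 and 163 CPM in vector libraries. This was the lowest log2 fold change of all tested members, -0.77 (SE 0.08, adjusted p = 0.000402, edgeR), or 0.588 times the vector level, and it was called under every alternative run. SDHD (chromosome 11, 112086773 to 112120013) had 47.1, 57.5 and 50.8 CPM in BHLHE22 and 39.3, 35.5 and 44.0 CPM in vector libraries, again without overlap. Its log2 fold change was 0.39 (SE 0.12, adjusted p = 0.0287). The call of SDHD was lost with the replicate block (adjusted p = 0.0537) and with a length offset (0.0542), and without BHLHE22 replicate 2 or 3 or vector replicate 1 or 2 (0.0550 to 0.104).

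The catalytic pair of complex II was not called. SDHA, the flavoprotein that binds succinate, had 212, 215 and 171 CPM in BHLHE22 libraries and 248, 217 and 231 CPM in vector libraries (log2 fold change -0.22, SE 0.11, adjusted p = 0.129, edgeR). SDHB, the iron-sulfur subunit, had 129.6, 143 and 139 CPM in BHLHE22 libraries and 119.6, 118 and 125 CPM in vector libraries (0.19, SE 0.08, adjusted p = 0.0757). In both genes the libraries of the groups did not overlap, all BHLHE22 libraries being lower for SDHA and higher for SDHB. SDHA has pseudogene rows in the table with 39.5% as many reads as its own row and SDHD has rows with 37.9%. With those reads added to each gene, SDHA was called lower (log2 fold change -0.34, adjusted p = 0.0219).

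In complex I all 13 higher calls fell on accessory subunits and the lower call on a core subunit. The 7 nuclear core subunits hold the flavin and the iron-sulfur clusters that lead electrons to ubiquinone. Of these, 6 were not called; log2 fold changes were -0.10 for NDUFV1, 0.17 for NDUFV2, 0.04 for NDUFS3, 0.01 for NDUFS7 and 0.06 for NDUFS8. NDUFS1 (chromosome 2, 206114817 to 206159603), the largest core subunit, was the exception. It had 129, 136 and 145 CPM in BHLHE22 libraries and 179, 175 and 180.4 CPM in vector libraries. The log2 fold change was -0.38 (SE 0.08, adjusted p = 0.00467, edgeR), and the gene was called lower under every alternative run.

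All 11 NDUFB genes, accessory subunits of the distal membrane arm, had positive log2 fold changes, from 0.04 for NDUFB10 to 0.73 for NDUFB2. Of the 11, 6 were called higher (54.5%, against 25.1% of all tested genes). NDUFB3 had 36.1, 36.4 and 37.3 CPM in BHLHE22 libraries and 22.6, 20.5 and 24.6 CPM in vector libraries (0.70, SE 0.11, adjusted p = 0.00145, edgeR). NDUFB2 had 27.8, 22.3 and 27.5 CPM in BHLHE22 and 15.7, 12.2 and 18.7 CPM in vector libraries (0.73, SE 0.18, adjusted p = 0.0105). In both genes all BHLHE22 libraries lay above all vector libraries. The other calls of this arm were NDUFB4 (0.33), NDUFB6 (0.48), NDUFB8 (0.42) and NDUFB11 (0.22). Their edgeR adjusted p-values were 0.0463, 0.0206, 0.0298 and 0.0432, and NDUFB3 alone of the arm was under 0.01. As given above, the excess of higher calls in complex I was not stable.

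Among the 17 tested accessory subunits outside that arm, 7 were called higher (41.2%, against 25.1% of all tested genes) and none lower, with a median of 0.24. NDUFC1, a small membrane-arm subunit, was the highest of all members, with 38.6, 41.6 and 34.9 CPM in BHLHE22 libraries and 21.9, 20.9 and 23.5 CPM in vector libraries (log2 fold change 0.80, SE 0.11, adjusted p = 0.00102, edgeR). NDUFC2, its neighbour in the complex, had 74.4, 77.6 and 84.3 CPM in BHLHE22 and 63.8, 46.3 and 49.2 CPM in vector libraries (0.57, SE 0.13, adjusted p = 0.00901). NDUFA8, an accessory subunit on the intermembrane face, had 44.2, 46.1 and 48.6 CPM in BHLHE22 and 30.6, 27.7 and 37.0 CPM in vector libraries (0.54, SE 0.12, adjusted p = 0.00874). None of these genes overlapped between the groups. NDUFA6, an LYR-motif subunit of the peripheral arm, stood at 3.20, 2.87 and 2.28 CPM in BHLHE22 libraries and 1.66, 1.43 and 1.83 CPM in vector libraries, on 188 reads in all (0.75, SE 0.22, adjusted p = 0.0235). Its call was lost in DESeq2 (adjusted p = 0.0891), with the replicate block (0.0530) and without any of 4 single libraries, BHLHE22 replicate 1 or 2 and vector replicate 1 or 2 (0.0613 to 0.0740). NDUFA11 (0.24), NDUFA12 (0.44) and NDUFS5 (0.34) completed the calls, and NDUFA7 had the lowest value of this group, -0.27, not called.

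In complex III one of the large core proteins and the iron-sulfur protein moved in opposite directions. UQCRC2, a core protein on the matrix side, had 98.3, 94.7 and 93.0 CPM in BHLHE22 libraries and 124, 126 and 135 CPM in vector libraries (log2 fold change -0.43, SE 0.08, adjusted p = 0.00278, edgeR). UQCRFS1, the Rieske iron-sulfur protein, had 71.8, 69.7 and 72.7 CPM in BHLHE22 and 54.9, 54.8 and 58.1 CPM in vector libraries (0.35, SE 0.08, adjusted p = 0.00732). UQCRQ, a small subunit beside cytochrome b, had 48.9, 50.2 and 49.7 CPM in BHLHE22 and 34.3, 32.0 and 37.7 CPM in vector libraries (0.52, SE 0.10, adjusted p = 0.00344). The groups overlapped in none of these genes. UQCRC1, the partner of UQCRC2, averaged 324 ± 9 CPM in BHLHE22 and 332 ± 21 CPM in vector libraries, with a 95% interval of the log2 fold change from -0.18 to 0.12. UQCRH and UQCRHL, near-identical copies between which reads may be divided, stood at 0.03 and 0.05, and neither was called. Pseudogene rows of UQCRFS1 held 25.1% as many reads as its own.

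Complex IV had the smallest share of calls. COX8A, a small membrane subunit, had 151, 151 and 141 CPM in BHLHE22 libraries and 109, 105 and 111 CPM in vector libraries (log2 fold change 0.45, SE 0.07, adjusted p = 0.00210, edgeR). COX5A, a subunit on the matrix side, had 50.8, 57.0 and 55.1 CPM in BHLHE22 and 39.6, 40.1 and 43.3 CPM in vector libraries (0.41, SE 0.09, adjusted p = 0.00804). Neither gene overlapped between the groups. COX7A2L, a COX7A-like protein that joins complex III to complex IV in supercomplexes, had 80.0, 39.6 and 48.1 CPM in BHLHE22 and 96.5, 57.9 and 102 CPM in vector libraries. The groups overlapped, and its log2 fold change of -0.61 (SE 0.33, adjusted p = 0.171) was not called. It was called lower without BHLHE22 replicate 1 (log2 fold change -0.95, adjusted p = 0.0352) and with the replicate block (-0.63, adjusted p = 0.0285). The tissue-restricted isoforms COX6A2, COX7A1, COX8C, COX7B2 and COX6B2 had 0, 0, 2, 25 and 31 reads over the 6 libraries and were not tested. COX6A1 has 7 pseudogene rows with 81.6% as many reads as its own row, and its value of -0.07 is uncertain to that extent.

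The summed nuclear members of each complex changed little. Complex V summed to 1979 ± 27 CPM in BHLHE22 libraries and 1658 ± 147 CPM in vector libraries, a ratio of 1.19, and complex I to 2056 ± 33 and 1882 ± 44 CPM, a ratio of 1.09. Complex II was lower, at 483 ± 29 CPM in BHLHE22 and 552 ± 12 CPM in vector libraries (ratio 0.874). Complex III summed to 995 ± 20 CPM in BHLHE22 and 1001 ± 24 CPM in vector libraries (ratio 0.994) and complex IV to 1018 ± 46 and 978 ± 59 CPM (ratio 1.04), differences within the spread of the libraries. All members together made 6531 ± 35 CPM in BHLHE22 libraries and 6072 ± 241 CPM in vector libraries (SD, n = 3 each). Such sums weigh genes by their abundance, and the most abundant were ATP5B in complex V and SDHA in complex II. SDHC averaged 93.9 CPM in BHLHE22 and 159.7 CPM in vector libraries, and SDHA 200 and 232 CPM. The means of SDHB and SDHD were higher in BHLHE22 libraries. The sums were not tested.

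The summed mRNAs of mitochondrial DNA were lower in BHLHE22 libraries for every complex that has them. Of the 13 single mRNAs, 12 were called lower, where 24.3% of all tested genes were, and MT-ND6 (-0.13) was not called. Their sum for complex I was 16344 ± 973 CPM in BHLHE22 libraries and 26621 ± 2770 CPM in vector libraries, a ratio of 0.614. The ratio was 0.483 for complex III, 0.540 for complex IV and 0.446 for complex V. The nuclear members amounted to 0.164 ± 0.013 of the mitochondrial sum in BHLHE22 libraries and to 0.0849 ± 0.0095 in vector libraries, and this quotient, which does not depend on library scaling, was 1.93 times as high in BHLHE22 libraries. With the mitochondrial genes removed from the counts before scaling, 27 members were still called higher and 4 lower.

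**Figure D4:**
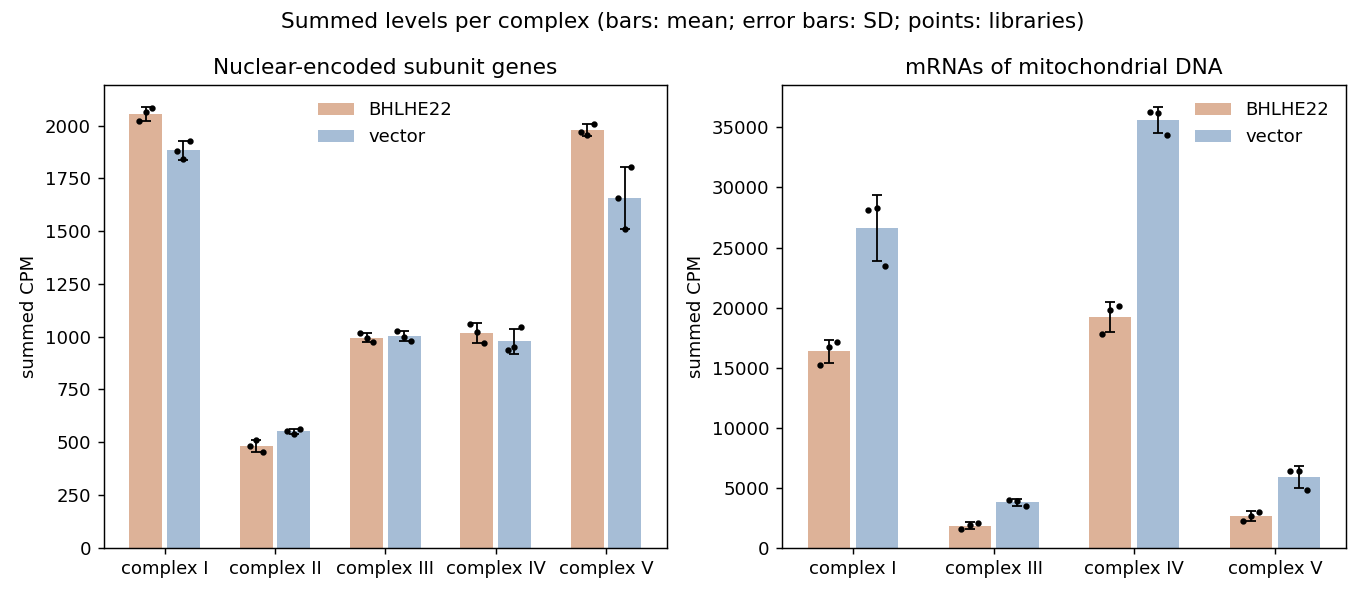
Summed CPM (vertical axes, starting at 0) of the nuclear-encoded members (left) and of the mRNAs of mitochondrial DNA (right) by complex; bars are means of 3 libraries, error bars the SD and points the libraries, with BHLHE22 left of vector in each pair. On the right all BHLHE22 bars are lower, while on the left complexes I and V are higher and complex II is lower.

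Among nuclear subunits and carriers whose symbols fall outside the rule are NDUFAB1, COX4I1, COX4I2, CYC1 and CYCS. Of these 5, 4 were tested and 2 were called, both higher. Over all tested genes, 49.4% were called in either direction and 25.1% called higher. CYCS, the electron carrier cytochrome c, had 165, 169 and 196 CPM in BHLHE22 libraries and 68.9, 90.0 and 114 CPM in vector libraries (log2 fold change 0.95, SE 0.18, adjusted p = 0.00429, edgeR). NDUFAB1, the mitochondrial acyl carrier protein in complex I, stood at 0.36 (adjusted p = 0.0102). COX4I1 and CYC1 had log2 fold changes of 0.07 and -0.04 and were not called.

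Assembly factors, the proteins that help build the complexes, were also called more often higher than lower. Of 56 tested, 24 (42.9%) were called higher and 5 (8.93%) lower, against 25.1% and 24.3% of all tested genes, with a median log2 fold change of 0.33. These counts come from the main fit alone. Whether they hold with a library left out or with a length offset was not examined. For complex I, 10 of 18 (55.6%) were higher and 1 was lower: TMEM126B, part of the membrane-arm assembly complex, stood at 0.66 (adjusted p = 0.00181), NDUFAF3 at 0.53 (adjusted p = 0.00238) and COA1 at -0.29 (adjusted p = 0.0315, edgeR). For complex IV, 10 of 24 (41.7%) were higher and 2 lower. COX20, a chaperone of the COX2 subunit, averaged 74.7 ± 5.4 CPM in BHLHE22 and 39.6 ± 5.9 CPM in vector libraries (0.91, adjusted p = 0.000989), and COA4 stood at 0.83, COX19 at -0.52 and COA5 at -0.48.

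The small lists for complexes II and III were split, with 1 higher and 1 lower call among 4 and among 6 genes. That for complex V had 2 of 4 higher and 0 lower, where 25.1% and 24.3% of all tested genes were. For complex II, SDHAF3 was higher at 0.66 (adjusted p = 0.00492) and SDHAF1 lower at -0.48 (adjusted p = 0.0134); both assist the iron-sulfur subunit SDHB. For complex III, BCS1L, which inserts the Rieske protein, was higher at 0.68 (adjusted p = 0.0136), and UQCC1, needed for cytochrome b, was lower at -0.69 (adjusted p = 0.00155, edgeR). For complex V, ATPAF1, which binds the beta subunit, was higher at 0.41 and TMEM70, which acts on the c-ring, at 0.61.

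Of 9 regulators of genes for mitochondrial proteins, in the nucleus or, for TFAM, in mitochondrial DNA, 8 were tested. Of these, 3 were called higher (37.5%), TFAM among them, and 3 lower (37.5%). Over all tested genes, 25.1% were called higher and 24.3% lower. TFAM, which packages mitochondrial DNA and takes part in its transcription, had 76.5, 87.2 and 108 CPM in BHLHE22 libraries and 47.6, 51.5 and 60.1 CPM in vector libraries (log2 fold change 0.77, SE 0.15, adjusted p = 0.00391, edgeR). The coactivators PPARGC1B (0.50, adjusted p = 0.0234) and PPRC1 (0.28, adjusted p = 0.0425) were also higher. YY1 had 186, 179 and 190 CPM in BHLHE22 libraries and 368, 385 and 349 CPM in vector libraries (-0.99, adjusted p = 0.000117). GABPA, the DNA-binding part of an ETS-family factor, stood at -0.79 (adjusted p = 0.000650) and NRF1 at -0.81 (adjusted p = 0.00310). ESRRA (0.19) and GABPB1 (0.04) were not called, and PPARGC1A, with 0 reads in BHLHE22 and 21 in vector libraries, was not tested.

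NRF1, ETS-family factors and YY1 are known to bind promoters of many respiratory genes, so their textbook motifs were searched by script, on both strands, in RefSeq promoter sequences (GRCh38.p14, 250 bases before to 50 after a start), in which 60 of the 75 tested members were found. The NRF1 palindrome, spelled out in capitals in the sequences that follow, lay in the promoters of 4 of the 60 members (6.67%), against 2.63% of 11057 tested genes and 1.52% of 27305 promoters in the table. All 4 members that hold it, ATP5C1, NDUFA8, NDUFB4 and SDHD, were among the 22 matched members called higher. None of the 35 not called and the 3 called lower held it. How many of the 291 tested genes with the palindrome were called higher was not computed, so this split cannot be called particular to the members. The call of NDUFB4 was near the threshold (adjusted p = 0.0463, edgeR), and that of SDHD was lost under several alternatives. The stretches around it are shown with the palindrome in capitals, written 5′ to 3′ on the strand of the gene, and lie at chr10:7788130-7788176 (plus), chr9:122159774-122159808 (minus), chr3:120596152-120596211 (plus) and chr11:112086738-112086797 (plus).
ATP5C1: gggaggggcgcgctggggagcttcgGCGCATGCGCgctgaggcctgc
NDUFA8: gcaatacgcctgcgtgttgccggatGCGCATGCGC
NDUFB4: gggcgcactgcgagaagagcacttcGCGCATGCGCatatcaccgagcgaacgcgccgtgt
SDHD: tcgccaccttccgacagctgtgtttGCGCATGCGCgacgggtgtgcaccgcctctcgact
The palindrome begins 22 bases before the start in ATP5C1, 4 in NDUFA8, 159 in NDUFB4 and 110 in SDHD, so its place is not shared.

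The other motifs were also found in members that were not called. A longer NRF1 form, in which the inner bases are shared with the palindrome and 1 base is free, was found in 4 of the 60 members, 2 of them called higher and 2 not called (6.67%, against 2.14% of tested genes). The ETS motif CCGGAAG was in 19 members (31.7%, against 21.7% of tested genes): 5 of 22 called higher, 13 of 35 not called and 1 of 3 called lower. The YY1 motif was in 4 members, none of them called (6.67%, against 2.27% of tested genes). A match of letters is no measure of binding, and a missing match says only that these letters are not in this window.

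Several members share their position with another expressed gene, and the sources do not say whether counting used strand. Of the 75 tested members, 25 overlap a gene with at least 10% as many reads, among them 14 of the 27 called higher and 1 of the 4 called lower. NDUFC1 overlaps NAA15, which had 283% as many reads and a log2 fold change of 0.77, called higher. NDUFB2 overlaps ADCK2 (0.64, higher) and BRAF (-0.95, lower), NDUFB3 overlaps FAM126B (-0.58, lower) and ATP5J overlaps GABPA (-0.79, lower). ATP5F1 overlaps WDR77, which had 27.1% as many reads and was called higher (1.53). ATP5H overlaps KCTD2, which had 86.0% as many reads and was not called (-0.90). NDUFS1 overlaps EEF1B2, which had 54.0% as many reads and was also called lower (-0.43). SDHD overlaps TIMM8B, with 27.2% as many reads, and ATP5J2 overlaps PTCD1 and CPSF4, and none of these 3 neighbours was called. The part of these neighbours in the members' values was not tested. No such overlap was found for the other 13 members called higher, which include ATP5G1, ATP5G3, COX5A, COX8A and UQCRQ, nor for SDHC, UQCRC2 and ATP5G2.

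The members are shorter than the typical gene by the lengths that the deposited FPKM values imply, with a median of 4007 bases for the tested members and 7141 for all tested genes. The median was 3683 bases for members called higher, 4172 for those not called and 11594 for those called lower. With an offset per library for length, the median log2 fold change of the members was 0.13 in place of 0.18, 20 members were called higher, 19 of them among the 27, and 5 were called lower. The 20 are 26.7% of the tested members, close to the 24.2% of all tested genes that were called higher with that offset.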

How the data were processed

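Per the file headers, the authors deposited 1 table with whole-number read counts and FPKM values per Ensembl gene; each deposited FPKM follows from the count, a fixed length and the library total, and FPKM served only for that length. Tools listed in the submitters' processing notes are HISAT2 2.1.0, StringTie 1.3.4b, CASAVA 1.8 and edgeR, and the builds are GRCh38 and hg38; which tool counted reads, and with which strand setting, is not given in the sources used here. Per the labels' protocols, an NEBNext Ultra kit was used on TRIzol-extracted RNA. Columns headed control were taken as vector libraries.

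From the counts, genes kept by filterByExpr (minimum count 10) were scaled by TMM and fitted with edgeR 4.0.16 in R 4.3.3 (robust quasi-likelihood, group as the only term, two-sided), with Benjamini-Hochberg adjustment over all 15945 genes and a threshold of 0.05. Values are CPM of each library, and the SE is the log2 fold change divided by the square root of F. Intervals of fold changes are 95% intervals from that SE. They use a normal quantile (1.96), so they are narrower than the quasi-likelihood test implies with 3 libraries per group. Members and lists were chosen with earlier results of these data known. The members named with all their values are, per complex, up to 4 called genes with the smallest p in each direction and the highest and lowest log2 fold change, all of SDHA to SDHD and every called change of at least 1.5-fold; from each other list up to 2 called genes per direction. ATP5G1, PPRC1, NRF1 and the members given with a fold change alone fall outside this rule. Of the members, 4 are pseudogenes in GENCODE 29 (0 reads each). Values of some genes are not reported here; counts and adjustments include them. The test was tried on simulated counts.

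Alternatives were unscaled library sizes, size factors of DESeq2 within edgeR, a replicate block, mitochondrial genes left out, DESeq2 1.42.0, limma-voom 3.58.1, no low-count filter, 1 CPM in 3 libraries, a length offset, a threshold of 0.01 and each library left out. Offsets for GC and length together, and pseudogene reads added to their gene, were chosen after seeing the data. Depth, 12186723 to 15949537 reads per library, gave tested members at least 174 reads in all.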

Additional observations from a re-analysis of the deposited data

How the results depend on the processing

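Of the members called higher, 15 to 27 of 27 kept their call under each alternative, and SDHC, NDUFS1 and UQCRC2 kept their lower call under all of them; no called value changed direction. The medians of complexes III and IV, 0.03 and 0.08, were -0.02 and -0.00 with the length offset, and -0.02 and -0.06 where GC content was added to that offset. No pairing by replicate number was seen: same-numbered libraries correlated at 0.0054, -0.027 and 0.010 in their deviations from the group means. Libraries with different numbers correlated at -0.040 to 0.039. With 3 libraries per group, these values cannot exclude a pairing. With the replicate block, 23 members were higher (30.7%, against 23.1% of all genes) and 5 lower (6.67%, against 22.6%). Complex II then had 0 higher and complex IV 1 lower (COX7A2L). Unscaled library sizes, which move the median of all genes by 0.15, gave a members' median of 0.3219. They gave 37 members higher (49.3%, against 32.2% of all genes) and 3 lower (4%, against 18.1%). Complex II then had 2 higher, complex IV 4 higher and complex V 0 lower. Of all calls, 64% were then higher, against 50.7% with TMM. The length offset gave a median of 0.1259, 2 lower in complex I and 0 higher in complex II; the GC and length offset gave 0.1194, 2 and 0, and 28% of the members higher, against 24.3% of all genes. Adding pseudogene reads gave 2 lower in complex II. At 0.01, 15 members (20%) were higher, 4 of them in complex I (11.4%) and 0 in complex II, against 15.6% of all genes. Complex V then had 0 lower, where 15.6% of all genes were.

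Leaving out 1 library gave 17 to 27 members higher (17 without BHLHE22 replicate 2 or vector replicate 1) and 3 to 5 lower, 6 to 13 higher in complex I (6 or 7 without any library but vector replicate 3), 0 to 1 higher in complex II, 0 to 1 lower in complex IV, 0 to 2 lower in complex V and a median of 0.1694 to 0.2222. The cause of these shifts was not tested, beyond the smaller number of libraries. The SE was largest for ATP5S and COX7A2L, and NDUFA6 had the fewest reads of the members called.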

Other observations

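Genes of complex V that the deposited table lists under older symbols, and that the symbol rule therefore missed, were read in the same edgeR fit. ATPIF1, the inhibitor that binds the F1 part when it would hydrolyse ATP, averaged 61.8 ± 3.2 CPM in BHLHE22 libraries and 51.3 ± 3.9 CPM in vector libraries (SD, n = 3 each), and was called higher by edgeR (0.27 on the log2 scale, adjusted p = 0.0442). USMG5, a small membrane subunit, averaged 85.0 ± 3.5 CPM in BHLHE22 and 69.4 ± 0.5 CPM in vector libraries (0.29, adjusted p = 0.0144). C14orf2, also a small membrane subunit, averaged 54.6 ± 4.6 CPM in BHLHE22 and 51.7 ± 3.1 CPM in vector libraries and was not called (0.08, adjusted p = 0.535).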
